A study of Mus musculus with 30 samples.

Results

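The hedgehog genes described here are the ligand *Ihh*, the receptors and signal-relaying proteins *Ptch1*, *Smo* and *Gas1*, the transcription factors *Gli1*, *Gli2* and *Gli3*, and the inhibitors *Hhip* and *Sufu*. These 9 genes were chosen by name with earlier results of these data known, so their counts beside all genes are descriptive. Each matched 1 Ensembl ID, and they stand among the 55416 gene IDs of the count table. Their RNA was followed by bulk RNA sequencing of the fracture callus, the repair tissue that forms around a broken bone, in 30 adult mice after a closed, non-stabilized fracture of the left tibia. P-Apex1KO mice carry Prrx1-Cre and 2 conditional alleles of *Apex1* (Prrx1-Cre+;Apex1 C/C), a gene that encodes a DNA repair endonuclease with a further role in the redox control of transcription factors. Their WT littermates were Prrx1-Cre+/-;Apex1 C/+, Apex1 C/C or Apex1 C/+, so all mice carry at least 1 conditional allele and some WT mice also carry Cre. Prrx1-Cre is active in the limb bud mesenchyme, so cells of other origin in the callus, such as blood and vessel cells, are not targeted. There were 4 WT and 4 P-Apex1KO mice at 3 days post-fracture (3-dpf), 5 WT and 3 P-Apex1KO at 6-dpf, and 4 WT and 3 P-Apex1KO at both 10- and 14-dpf.

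In cartilage, Indian hedgehog (IHH) is made by chondrocytes that leave proliferation to enlarge, the prehypertrophic and early hypertrophic cells, and acts on neighbouring chondrocytes and on bone-forming cells of the perichondrium and periosteum. Without ligand, the receptor PTCH1 holds the membrane protein SMO inactive, and GLI3 is cut to a repressor. With ligand, SMO relieves this through the primary cilium, GLI2 acts as an activator, and *Gli1*, *Ptch1* and *Hhip* are transcribed, which makes these transcripts common readouts of the pathway. During fracture repair the pathway is active when soft callus cartilage forms and is replaced by bone.

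Libraries held between 18334389 and 43111491 counts on genes, and values are given as CPM, counts scaled to a common library total after TMM normalization of all 30 libraries, with no correction for gene length unless stated. *Apex1* itself was lower in every P-Apex1KO library than in every WT library of the same day at 6-dpf (15.1 to 15.8 against 20.7 to 28.9 CPM; log2 difference -0.67, adjusted p = 0.0071), 10-dpf (14.0 to 16.8 against 16.9 to 27.5 CPM; -0.65, adjusted p = 0.0278) and 14-dpf (14.2 to 18.6 against 19.8 to 27.2 CPM; -0.29, adjusted p = 0.367). At 3-dpf the libraries labelled P-Apex1KO had 18.4, 29.0, 27.6 and 34.5 CPM against 26.4 to 33.1 CPM in WT, so the RNA did not separate the labels there. Replicates of every group differed by more than sampling noise, so each library was counted as 1 sample. At 14-dpf all 3 P-Apex1KO mice were female and only replicate 1 of WT was, so a comparison with sex in the model rests on that 1 WT mouse. Callus RNA comes from many cell types, and fewer cells of a type cannot be told apart from less RNA per cell. The genotype differences below are log2 fold changes of P-Apex1KO over WT with standard errors (SE), from edgeR's quasi-likelihood test at each time point. Each fit included sex, and p-values were adjusted by the Benjamini-Hochberg method across the whole table. A gene is called changed at an adjusted p under 0.05.

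The comparison of genotypes asks how the loss of *Apex1* in limb mesenchyme goes with the pathway's RNA as the callus forms. At 6-dpf, 6 of the 9 were lower in P-Apex1KO callus and 0 were higher, where 5.61% of the 20260 genes tested were lower and 5.31% higher. The groups of each of the 6 did not overlap, which held in that direction for 11.9% of all genes. At 3-dpf 0 of the 8 that could be tested were called by edgeR or by DESeq2, and 0 had an unadjusted p under 0.05. Of all genes, edgeR called 0% there, with 6.12% at an unadjusted p under 0.05, and DESeq2 called 78 of 19866. At 10-dpf 2 were lower and 0 higher, beside 3.44% and 3.01% of all genes. At 14-dpf 3 were lower and 1 higher, beside 7.04% and 4.28% of all genes. The median log2 difference of the tested members was -0.21, -1.29, -0.45 and -0.48 at the 4 time points in turn, against medians of 0.00, 0.01, 0.00 and 0.04 over all genes. Scaling to library size alone, without TMM, moved the median of all genes to 0.20 at 6-dpf and 0.31 at 14-dpf. It left 22.6% of all calls lower in place of 51.4% at 6-dpf, 35.3% in place of 53.3% at 10-dpf and 29.0% in place of 62.2% at 14-dpf. The members' counts under that scaling were 6, 2 and 2 lower and 0, 0 and 2 higher. Of all genes tested, 814 of 20260, 464 of 18910 and 766 of 20228 were lower under it, and 2780, 849 and 1878 higher.

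**Figure D1:**
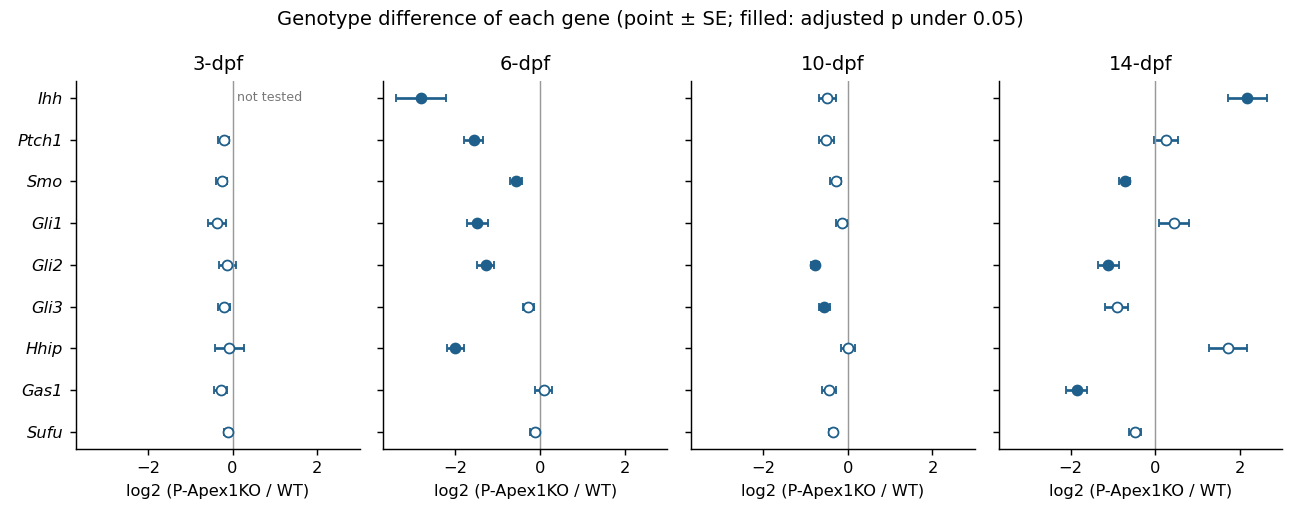
Genotype difference of each hedgehog gene at each time point, as log2 of P-Apex1KO over WT on the x axis, with points for the fitted value and bars for the SE; filled points passed the adjusted p of 0.05. At 6-dpf *Ihh* lay at -2.82 and *Hhip* at -2.00, and at 14-dpf *Ihh* and *Hhip* lay above 0 while *Gas1* lay at -1.86; *Ihh* had too few counts to be tested at 3-dpf.

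*Ihh*, the ligand (chromosome 1, 74984474 to 74990837, minus strand, all positions on GRCm39), was nearly absent at 3-dpf, with 3 to 6 reads in each of the 8 libraries. That corresponds to 0.136, 0.157, 0.150 and 0.117 CPM in WT and 0.0946, 0.125, 0.170 and 0.212 CPM in the libraries labelled P-Apex1KO, and the gene did not pass the filter on low counts. At 6-dpf *Ihh* stood at 42.1, 84.5, 74.3, 90.2 and 79.4 CPM in WT and at 16.3, 12.3 and 2.34 CPM in P-Apex1KO. The lowest WT library thus lay above the highest P-Apex1KO library, and replicate 3 of P-Apex1KO was far below its group. The difference was -2.82 (SE 0.59, adjusted p = 0.0278), a level 7.04-fold lower. This call was lost without replicate 2 of WT (adjusted p = 0.0713), replicate 4 of WT (adjusted p = 0.0779) or replicate 2 of P-Apex1KO (adjusted p = 0.0641) and without the filter on low counts (adjusted p = 0.1), while the log2 difference stayed between -3.54 and -2.35 whichever library was left out. All 12 chondrocyte markers were also lower in the same P-Apex1KO libraries at 6-dpf, with a median log2 difference of -2.98, and their part in the *Ihh* difference was not tested.

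By 10-dpf the *Ihh* levels of the genotypes overlapped, at 97.8, 110, 137 and 95.2 CPM in WT and 63.8, 113 and 68.6 CPM in P-Apex1KO. Replicate 2 of P-Apex1KO lay within the WT range and the other two below it, and the difference of -0.48 (SE 0.21, adjusted p = 0.22) was not called. At 14-dpf *Ihh* was lower in both genotypes than at 10-dpf, at 6.86, 21.2, 27.5 and 31.2 CPM in WT and 43.7, 20.3 and 27.1 CPM in P-Apex1KO. The lowest value was that of the only WT female, and the 3 WT males overlapped the P-Apex1KO females. In the fit of 14-dpf alone with sex the difference was 2.17 (SE 0.46, adjusted p = 0.0274), 4.5-fold higher, and without the sex term it was 0.52 (SE 0.48, adjusted p = 0.434). Wider models that keep sex gave 1.11 with the neighbouring time point (SE 0.47, adjusted p = 0.0966) and 0.74 with all samples (SE 0.48, adjusted p = 0.262), neither called. The call was also lost without replicate 3 (adjusted p = 0.0604) or 4 (adjusted p = 0.0505) of WT and without the filter (adjusted p = 0.113). It was kept by DESeq2 (2.18, adjusted p = 2.37e-06) and with library size alone (2.44, adjusted p = 0.0218), fits of 14-dpf alone with sex that rest on the same WT female.

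**Figure D2:**
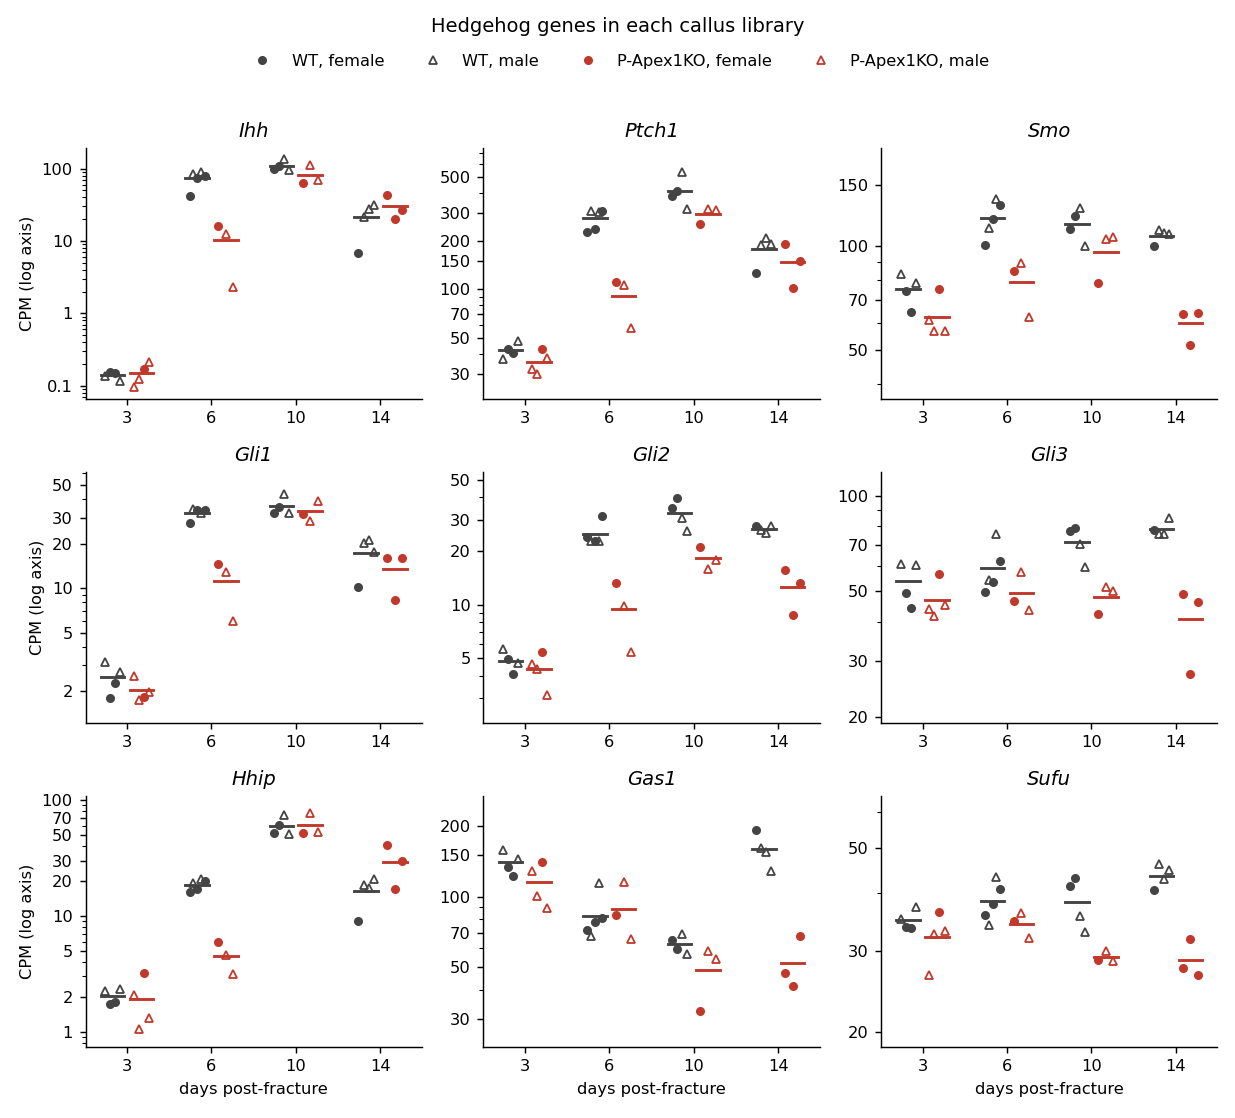
Level of each hedgehog gene in each callus library, in CPM on a log axis, by days post-fracture; grey is WT, red is P-Apex1KO, filled circles are females, open triangles are males, and horizontal lines are group means. *Ihh* has 3 to 6 reads per library at 3-dpf and a WT mean of 74.1 CPM at 6-dpf, and at 14-dpf the WT female lies at 6.86 CPM, below the other 3 WT mice.

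*Ptch1* and *Hhip* encode a receptor and a decoy that both bind the ligand, and both are transcribed in response to it. The stretches just before the start of the canonical transcripts of *Ptch1*, *Hhip* and *Gli1*, the pathway's readout genes, are shown because these genes moved together at 6-dpf. They are given in the direction of each gene on GRCm39 with GENCODE M39 starts, and capitals mark GACCACCCA or its reverse complement TGGGTGGTC, the sequence GLI proteins are known to bind.
Ptch1, chr13:63714093-63714392, minus strand: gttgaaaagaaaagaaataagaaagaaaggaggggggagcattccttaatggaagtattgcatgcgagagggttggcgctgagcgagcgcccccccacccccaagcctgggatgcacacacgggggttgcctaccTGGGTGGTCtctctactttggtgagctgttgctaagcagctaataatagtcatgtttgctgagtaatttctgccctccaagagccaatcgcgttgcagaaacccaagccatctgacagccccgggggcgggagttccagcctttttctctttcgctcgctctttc
Gli1, chr10:127177866-127178165, minus strand: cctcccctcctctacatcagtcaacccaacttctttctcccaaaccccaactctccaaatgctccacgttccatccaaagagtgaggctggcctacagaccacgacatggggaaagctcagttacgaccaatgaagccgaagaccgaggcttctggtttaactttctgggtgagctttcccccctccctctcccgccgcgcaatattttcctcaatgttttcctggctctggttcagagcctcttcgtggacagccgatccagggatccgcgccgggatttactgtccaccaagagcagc
Hhip, chr8:80784659-80784958, minus strand: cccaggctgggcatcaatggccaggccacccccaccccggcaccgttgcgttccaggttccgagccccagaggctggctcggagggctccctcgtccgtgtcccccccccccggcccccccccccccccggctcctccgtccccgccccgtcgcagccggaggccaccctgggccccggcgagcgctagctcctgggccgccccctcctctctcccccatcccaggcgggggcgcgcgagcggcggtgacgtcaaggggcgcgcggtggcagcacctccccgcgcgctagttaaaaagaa
The *Ptch1* window holds 1 match, on the strand opposite to the gene, whose first base lies 165 bases before the start. The window lies inside the gene as annotated but over no exon, since other *Ptch1* transcripts start farther upstream. The *Gli1* window overlaps the gene model Gm47200 but no exon, and the *Hhip* window overlaps an exon of the gene model Gm53441. Of the windows of 300 bases before 21770 protein-coding genes, 0.239% hold the motif on either strand, and among the 9 hedgehog genes only that of *Ptch1* does. Extending the windows to 1000 bases gave 0.827% of all genes and again only *Ptch1* of the members. A match is a description of the letters and not a binding site shown here, and GLI proteins also bind elsewhere.

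*Ptch1* RNA (chromosome 13, 63656142 to 63721412, minus strand) lay at 36.8, 42.8, 40.6 and 47.9 CPM in WT and 32.2, 30, 42.9 and 37.3 CPM in the libraries labelled P-Apex1KO at 3-dpf. At 6-dpf it had 227, 309, 236, 303 and 307 CPM in WT and 111, 106 and 57.8 CPM in P-Apex1KO. Every P-Apex1KO library was thus under the lowest WT library at 6-dpf, and replicate 3 was again the lowest. The difference was -1.57 (SE 0.23, adjusted p = 0.00407), 2.96-fold lower, and it was called whichever library was left out. At 10-dpf *Ptch1* stood at 380, 409, 539 and 314 CPM in WT and 254, 317 and 310 CPM in P-Apex1KO, with a difference of -0.51 (SE 0.18, adjusted p = 0.123). Only replicate 2 of P-Apex1KO lay above the lowest WT library. At 14-dpf it stood at 127, 190, 209 and 191 CPM in WT and 192, 102 and 150 CPM in P-Apex1KO, overlapping, with a difference of 0.25 (SE 0.29, adjusted p = 0.62) that became -0.24 without the sex term.

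*Hhip* (chromosome 8, 80692480 to 80784658, minus strand), the decoy that binds hedgehog ligands at the cell surface, had the smallest adjusted p of the 9 genes at 6-dpf. It lay at 16.1, 19.1, 17.1, 20.7 and 20.2 CPM in WT and 5.91, 4.57 and 3.16 CPM in P-Apex1KO. The gap between the groups was wide relative to the spread within them, and the difference was -2.00 (SE 0.20, adjusted p = 0.000747), 3.99-fold lower. At 3-dpf both groups had been low, at 2.27, 1.72, 1.80 and 2.35 CPM in WT and 2.08, 1.06, 3.20 and 1.31 CPM in the libraries labelled P-Apex1KO. By 10-dpf the genotypes overlapped, at 52.0, 61.4, 74.0 and 51.2 CPM in WT and 52.1, 77.0 and 53.5 CPM in P-Apex1KO, with a difference of 0.00 (SE 0.17, adjusted p = 0.998). At 14-dpf *Hhip* stood at 9.09, 18.6, 17.3 and 20.9 CPM in WT and at 41.1, 17.1 and 29.9 CPM in P-Apex1KO. Replicates 1 and 3 of P-Apex1KO lay above all WT mice and replicate 2 among them, and the difference was 1.71 (SE 0.45, adjusted p = 0.0535) with sex and 0.87 (SE 0.34, adjusted p = 0.0819) without. Other fits called it higher: DESeq2 (1.72, adjusted p = 0.000401), library size alone (1.98, adjusted p = 0.0322), the neighbouring time point in the model (1.22, adjusted p = 0.0206) and all samples (0.90, adjusted p = 0.0388). It also passed the threshold without replicate 1 (adjusted p = 0.0414) or replicate 2 of P-Apex1KO (adjusted p = 0.000884).

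*Gli1*, a transcription factor gene that is itself switched on by the pathway (chromosome 10, 127165751 to 127177865, minus strand), went with *Ptch1* and *Hhip* at 6-dpf. It had 27.7, 34.2, 33.6, 32.3 and 33.8 CPM in WT and 14.6, 12.8 and 6.01 CPM in P-Apex1KO. The WT libraries lay close together and all P-Apex1KO libraries were lower, at -1.48 (SE 0.25, adjusted p = 0.00732). At 3-dpf it had been at 3.18, 1.79, 2.29 and 2.7 CPM in WT and 2.55, 1.75, 1.84 and 1.98 CPM in the libraries labelled P-Apex1KO. The difference there was -0.37 (SE 0.22, adjusted p = 0.86), and -0.29 with a replicate block (adjusted p = 0.727). At 10-dpf the values were 32.3, 35.5, 43.5 and 32.0 CPM in WT and 31.9, 28.6 and 38.8 CPM in P-Apex1KO, where the groups overlapped (difference -0.13, SE 0.14, adjusted p = 0.639). At 14-dpf they were 10.1, 20.2, 21.1 and 17.5 CPM in WT and 15.9, 8.27 and 16.0 CPM in P-Apex1KO. The WT female and replicate 2 of P-Apex1KO were the low libraries there, and the difference was 0.44 (SE 0.35, adjusted p = 0.462) with sex and -0.33 without.

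*Gli2* (chromosome 1, 118761858 to 118982598, minus strand), which encodes the main activator among the GLI proteins, was the only member called lower at 6-, 10- and 14-dpf. It started at 5.62, 4.95, 4.06 and 4.73 CPM in WT and 4.64, 4.34, 5.44 and 3.11 CPM in the libraries labelled P-Apex1KO at 3-dpf. At 6-dpf it stood at 24.1, 22.9, 22.9, 22.9 and 31.5 CPM in WT and 13.2, 9.87 and 5.44 CPM in P-Apex1KO. All P-Apex1KO libraries were lower by a clear margin (difference -1.29, SE 0.21, adjusted p = 0.00665). At 10-dpf it had 34.7, 39.6, 30.7 and 26.0 CPM in WT and 21.2, 15.8 and 17.9 CPM in P-Apex1KO, again without overlap (difference -0.77, SE 0.10, adjusted p = 0.0114). At 14-dpf the WT mice, at 27.6, 26.1, 25.2 and 27.7 CPM, were nearly alike, and P-Apex1KO had 15.7, 8.75 and 13.3 CPM. There the difference was -1.11 (SE 0.25, adjusted p = 0.0306), and -1.04 without the sex term. The 10-dpf call was lost without replicate 1 of P-Apex1KO (adjusted p = 0.0739), and the 14-dpf call without replicate 2, 3 or 4 of WT (adjusted p = 0.0728, 0.0712 and 0.0693) or with library size alone (-0.84, adjusted p = 0.0598).

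*Gli3* (chromosome 13, 15637809 to 15904611, plus strand), the source of the main GLI repressor, was called lower at 10-dpf in the edgeR fits of single time points, and at 14-dpf in other fits. At 6-dpf it had 49.5, 54.3, 53.5, 75.7 and 62.3 CPM in WT and 46.4, 57.3 and 43.7 CPM in P-Apex1KO, overlapping (difference -0.28, SE 0.13, adjusted p = 0.211). At 10-dpf it had 77.2, 79.0, 70.5 and 59.4 CPM in WT and 42.3, 51.5 and 50.1 CPM in P-Apex1KO. The groups did not overlap there, and the difference of -0.55 (SE 0.12, adjusted p = 0.0365) was called. Of the 7 fits that left out 1 library, 5 lost the call, namely those without replicate 1 (adjusted p = 0.109), 2 (0.102) or 3 (0.0684) of WT and without replicate 1 (0.19) or 3 (0.0719) of P-Apex1KO. At 14-dpf the values were 77.9, 75.9, 75.5 and 84.8 CPM in WT and 49.1, 27.4 and 46.0 CPM in P-Apex1KO, again apart. The difference of -0.91 (SE 0.27, adjusted p = 0.073) was not called in the fit of 14-dpf alone. It was called without sex (-0.91, SE 0.18, adjusted p = 0.00552) and also in fits that keep sex, by DESeq2 (-0.90, adjusted p = 0.0228), with the neighbouring time point (-0.95, adjusted p = 0.00378) and with all samples (-0.90, adjusted p = 0.000577). With library size alone the 14-dpf difference was -0.64 (adjusted p = 0.13) and was not called. At 10-dpf the neighbouring time point in the model took the call away (adjusted p = 0.0673). At 3-dpf *Gli3* lay between 44.1 and 60.7 CPM in WT and between 41.7 and 56.6 CPM in the libraries labelled P-Apex1KO.

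*Smo* (chromosome 6, 29735407 to 29762532, plus strand), the membrane protein that passes the signal on, was lower at 6- and 14-dpf. At 6-dpf it had 101, 113, 120, 137 and 131 CPM in WT and 84.9, 89.2 and 62.2 CPM in P-Apex1KO, with no overlap and a difference of -0.58 (SE 0.14, adjusted p = 0.0294). This call was lost without replicate 2 (adjusted p = 0.0679), 3 (0.0548) or 4 (0.101) of WT or replicate 1 of P-Apex1KO (0.0733). At 14-dpf the values were 100, 111, 109 and 108 CPM in WT and 63.6, 51.8 and 63.9 CPM in P-Apex1KO. The WT mice were close together irrespective of sex, and the difference of -0.72 (SE 0.13, adjusted p = 0.0122) was called in each of the 6 fits that left out 1 library. At 10-dpf *Smo* lay at 112, 122, 129 and 99.9 CPM in WT and 78.3, 105 and 106 CPM in P-Apex1KO (difference -0.29, SE 0.12, adjusted p = 0.2). At 3-dpf it lay at 64.4 to 83.2 CPM in WT and 56.8 to 75.0 CPM in the libraries labelled P-Apex1KO.

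*Gas1* (chromosome 13, 60322219 to 60325179, minus strand), which encodes a membrane coreceptor for hedgehog ligands, was called lower at 14-dpf and not at the earlier time points. At 6-dpf it had 71.7, 68.1, 77.9, 114 and 80.6 CPM in WT and 83.6, 115 and 66.1 CPM in P-Apex1KO, overlapping, with a difference of 0.08 (SE 0.20, adjusted p = 0.858). At 10-dpf the values were 65.4, 59.6, 69.1 and 56.5 CPM in WT and 32.5, 58.5 and 53.9 CPM in P-Apex1KO (difference -0.45, SE 0.17, adjusted p = 0.151). At 14-dpf *Gas1* stood at 192, 162, 155 and 129 CPM in WT and 46.9, 41.3 and 67.5 CPM in P-Apex1KO. The groups were wide apart for both sexes of WT, and the difference was -1.86 (SE 0.24, adjusted p = 0.00455), 3.64-fold lower. It was -1.58 without the sex term (SE 0.20, adjusted p = 0.000792), and it was called in all 6 fits that left out 1 library. At 3-dpf *Gas1* lay between 123 and 158 CPM in WT and between 89.6 and 140 CPM in the libraries labelled P-Apex1KO (difference -0.28, SE 0.15, adjusted p = 0.852).

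*Sufu* (chromosome 19, 46385324 to 46477243, plus strand), the cytoplasmic inhibitor that binds GLI proteins, was not called at any time point in the edgeR fit of that time point alone. At 6-dpf it had 35.9, 34.1, 37.8, 43.3 and 40.7 CPM in WT and 34.8, 36.1 and 32.0 CPM in P-Apex1KO (difference -0.13, SE 0.10, adjusted p = 0.439). At 10-dpf the values were 41.4, 43.2, 35.7 and 32.9 CPM in WT and 28.6, 29.9 and 28.5 CPM in P-Apex1KO. At 14-dpf they were 40.6, 46.3, 42.8 and 44.8 CPM in WT and 27.5, 31.7 and 26.6 CPM in P-Apex1KO. Neither time point had an overlap, yet the differences of -0.35 (SE 0.09, adjusted p = 0.0621) and -0.48 (SE 0.14, adjusted p = 0.0642) did not pass. Wider models that keep sex did call them lower: with the neighbouring time point the values were -0.37 (adjusted p = 0.0401) and -0.65 (adjusted p = 0.00146), and with all samples -0.39 (adjusted p = 0.0196) and -0.64 (adjusted p = 9.57e-05). In fits of 14-dpf alone, DESeq2 (-0.47, adjusted p = 0.0655) and library size alone (-0.21, adjusted p = 0.388) did not call it. Counting such separations, 5 members lay apart and lower at 14-dpf (*Smo*, *Gli2*, *Gli3*, *Gas1* and *Sufu*), where 23.4% of all genes did, and 3 at 10-dpf (*Gli2*, *Gli3* and *Sufu*), where 10.5% did. At 3-dpf *Sufu* lay between 33.5 and 37.2 CPM in WT and between 26.5 and 36.3 CPM in the libraries labelled P-Apex1KO.

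**Figure D3:**
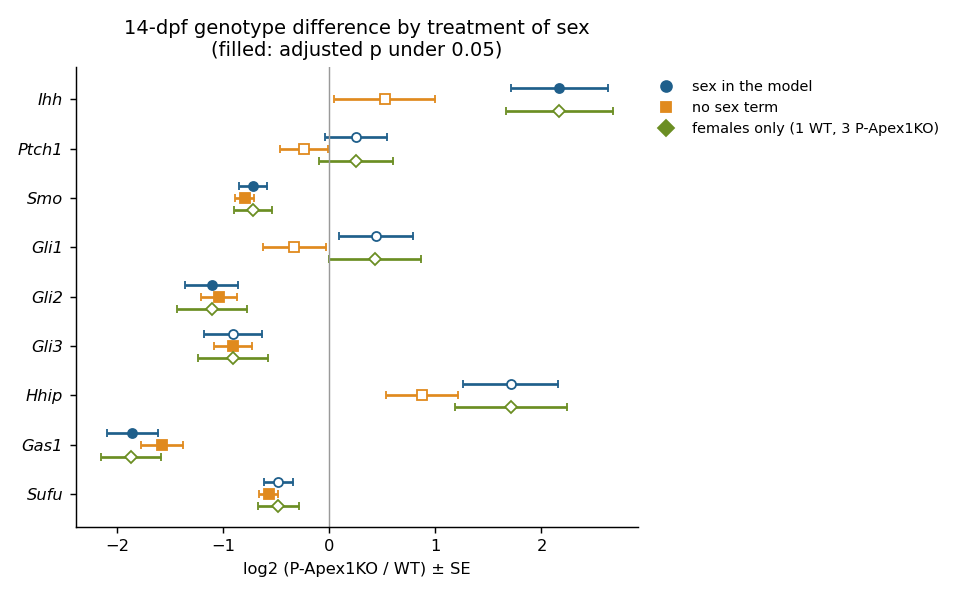
Genotype difference of each hedgehog gene at 14-dpf, as log2 of P-Apex1KO over WT with bars for the SE, with sex in the model, without a sex term, and in females alone (1 WT and 3 P-Apex1KO); filled symbols passed the adjusted p of 0.05. *Ihh* moved from 2.17 with sex to 0.52 without, and *Ptch1* and *Gli1* changed sign, while *Smo*, *Gli2*, *Gli3*, *Gas1* and *Sufu* stayed below 0 in all 3 fits.

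Sex and genotype cannot be fully told apart at 14-dpf. Without the sex term *Gas1*, *Smo*, *Gli2*, *Gli3* and *Sufu* were called lower and 0 members higher, where 18.4% of all genes were lower and 18.8% higher. Among females alone, 1 WT and 3 P-Apex1KO mice, 0 members passed in a fit whose spread came from the P-Apex1KO mice alone, where 0.605% of all genes were lower and 0.107% higher. The difference of *Ihh* was 2.17 (SE 0.50, adjusted p = 0.124) and that of *Gas1* -1.87 (SE 0.28, adjusted p = 0.061). Leaving out replicate 2 of P-Apex1KO, which had the lowest value of its group for every member but *Sufu*, raised the count of called members from 4 to 8. The share of all genes called in that fit was not counted, so the rise cannot be read as particular to these genes.

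The change over time was tested within the pairs of time points that share a style of sample name, 3- with 6-dpf and 10- with 14-dpf, in models of 4 groups and sex. The paper describes the 3-dpf material as tibia dissected around the fracture site and the 6-dpf material as whole callus. A difference in the tissue taken therefore cannot be told apart from time between 3- and 6-dpf. In WT callus 6 members rose from 3- to 6-dpf and 1 fell, beside 15.4% and 15.1% of all genes. With library size alone 7 members were called as well, beside 8886 of 20468 genes. Of all calls 78.6% were then lower in place of 49.4%, and the median of all genes moved from -0.03 to -0.27. *Ihh* rose by 8.97 on the log2 scale (SE 0.62, adjusted p = 4e-07), a value that rests on 4 to 6 reads per WT library at 3-dpf. *Gli1* rose by 3.66 (SE 0.24, adjusted p = 6.38e-08), *Hhip* by 3.13 (SE 0.27, adjusted p = 9.38e-07), *Ptch1* by 2.68 (SE 0.19, adjusted p = 1.79e-07), *Gli2* by 2.28 (SE 0.21, adjusted p = 1.38e-06) and *Smo* by 0.65 (SE 0.12, adjusted p = 0.000858). The coreceptor gene *Gas1* fell by 0.79 (SE 0.18, adjusted p = 0.00354). Readout genes and *Gli2* thus rose together with the ligand in WT mice.

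In P-Apex1KO callus 5 members rose over the same interval and 0 fell, beside 7.1% and 6.91% of all genes. The rises were 6.04 for *Ihh* (SE 0.65, adjusted p = 0.00011), 2.47 for *Gli1* (SE 0.25, adjusted p = 3.61e-05), 1.36 for *Ptch1* (SE 0.20, adjusted p = 0.000594), 1.23 for *Hhip* (SE 0.29, adjusted p = 0.0105) and 1.08 for *Gli2* (SE 0.22, adjusted p = 0.00504). The *Hhip* call was lost without replicate 1 of P-Apex1KO at 6-dpf (adjusted p = 0.0648). Each of these fitted rises was smaller than in WT. The test of that difference, the interaction of genotype and time, called *Ptch1* (-1.32, SE 0.26, adjusted p = 0.0263) and *Hhip* (-1.89, SE 0.39, adjusted p = 0.027), beside 0.987% of all genes called in this direction. The interaction was -1.20 for both *Gli2* (SE 0.30, adjusted p = 0.0639) and *Gli1* (SE 0.34, adjusted p = 0.114) and -2.93 for *Ihh* (SE 1.23, adjusted p = 0.338), none of which passed. Of 16 fits that left out 1 library, 6 lost the call of *Ptch1* (adjusted p from 0.0518 to 0.0681: replicates 1, 2 and 3 of WT and 3 of P-Apex1KO at 3-dpf, and 4 and 5 of WT at 6-dpf). Of the same fits, 5 lost that of *Hhip* (adjusted p from 0.0524 to 0.0842: replicates 2 and 3 of WT and 3 of P-Apex1KO at 3-dpf, and 4 of WT and 3 of P-Apex1KO at 6-dpf).

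From 10- to 14-dpf the same ligand and readout genes fell in WT callus. *Ihh* fell by 2.64 (SE 0.38, adjusted p = 0.00188), *Hhip* by 2.02 (SE 0.28, adjusted p = 0.00129), *Ptch1* by 1.31 (SE 0.20, adjusted p = 0.00189) and *Gli1* by 1.18 (SE 0.23, adjusted p = 0.00695) on the log2 scale, while *Gas1* rose by 1.32 (SE 0.20, adjusted p = 0.00181). These 4 lower and 1 higher members stood beside 4.92% and 6.19% of all genes, and all 5 calls held in each of the 14 fits that left out 1 library. In P-Apex1KO callus 0 members were called by edgeR, 5 had an unadjusted p under 0.05 and DESeq2 called 3. Of all genes edgeR called 0.259% and 14.3% had an unadjusted p under 0.05, while DESeq2 called 549 of 19705. The changes were -0.95 for *Ihh* (SE 0.44, adjusted p = 0.363), -0.75 for *Hhip* (SE 0.33, adjusted p = 0.332), -0.77 for *Ptch1* (SE 0.25, adjusted p = 0.193), -1.07 for *Gli1* (SE 0.29, adjusted p = 0.127) and 0.16 for *Gas1* (SE 0.26, adjusted p = 0.837). Even so, 6 members lay wholly lower at 14- than at 10-dpf in P-Apex1KO, as did 11.5% of all genes. The difference between genotypes in this change was called for 0 members by edgeR, where 0.436% of all genes were called. An unadjusted p under 0.05 was found for 4 members and 13.1% of all genes, and DESeq2 called 2 members beside 446 of 19705 genes. Its values furthest from 0 were 1.69 for *Ihh* (SE 0.63, adjusted p = 0.288), 1.26 for *Hhip* (SE 0.46, adjusted p = 0.273) and -1.16 for *Gas1* (SE 0.34, adjusted p = 0.18). Levels at 6- and 10-dpf were not compared by a test, since the style of sample names changes between them and a library batch cannot be told apart from time.

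Levels of different genes can be compared only per length, so CPM was divided by the kb of merged exons, and neighbours whose mean ± SD overlapped are named as not separated by their spread. In WT callus at 3-dpf *Gas1* led with 47.4 ± 5.05 CPM per kb (SD, n = 4), followed by *Smo* with 8.48 ± 0.904, *Gli3* with 5.36 ± 0.824, *Sufu* with 3.78 ± 0.186, *Ptch1* with 2.85 ± 0.315, *Gli2* with 0.600 ± 0.0796, *Gli1* with 0.497 ± 0.118, *Hhip* with 0.190 ± 0.0298 and *Ihh* with 0.0459 ± 0.00569. Of these neighbours only *Gli2* and *Gli1* were not separated by their spread. *Ihh* was thus the lowest of the 9. *Dhh*, a ligand outside the 9, stood at 0.474 ± 0.119 CPM per kb in the same libraries, not separated from *Gli1*. The libraries labelled P-Apex1KO had the same order, from *Gas1* at 38.7 ± 7.90 through *Smo* (7.07 ± 0.974), *Gli3* (4.68 ± 0.663), *Sufu* (3.47 ± 0.439), *Ptch1* (2.42 ± 0.388), *Gli2* (0.543 ± 0.120), *Gli1* (0.405 ± 0.0723) and *Hhip* (0.178 ± 0.0897) to *Ihh* (0.0492 ± 0.0168; SD, n = 4), and again only *Gli2* and *Gli1* were not separated. At 6-dpf in WT the order was *Gas1* (27.8 ± 6.16; SD, n = 5), *Ihh* (24.3 ± 6.18), *Ptch1* (18.8 ± 2.80), *Smo* (13.6 ± 1.61), *Gli1* (6.44 ± 0.539), *Gli3* (5.90 ± 1.04), *Sufu* (4.15 ± 0.398), *Gli2* (3.08 ± 0.464) and *Hhip* (1.74 ± 0.186). In P-Apex1KO at 6-dpf the order was *Gas1* (29.8 ± 8.35; SD, n = 3), *Smo* (8.92 ± 1.64), *Ptch1* (6.22 ± 2.00), *Gli3* (4.91 ± 0.718), *Sufu* (3.71 ± 0.227), *Ihh* (3.38 ± 2.35), *Gli1* (2.22 ± 0.905), *Gli2* (1.18 ± 0.482) and *Hhip* (0.424 ± 0.128). The ligand thus stood next to *Gas1* in WT and between *Sufu* and *Gli1* in P-Apex1KO. Neighbours not separated by their spread were *Gas1* and *Ihh*, *Ihh* and *Ptch1*, and *Gli1* and *Gli3* in WT, and in P-Apex1KO *Smo* and *Ptch1*, *Ptch1* and *Gli3*, and the run from *Sufu* through *Ihh* and *Gli1* to *Gli2*.

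At 10-dpf *Ihh* led in both genotypes, at 36.0 ± 6.30 CPM per kb in WT (SD, n = 4) and 26.7 ± 8.80 in P-Apex1KO (SD, n = 3). *Ptch1* came next at 27.9 ± 6.42 and 19.9 ± 2.34, then *Gas1* at 21.2 ± 1.92 and 16.3 ± 4.68, and *Smo* at 13.1 ± 1.44 and 10.9 ± 1.77. None of these neighbours was separated by its spread, except *Gas1* from *Smo* in WT. *Gli3* (7.15 ± 0.888), *Gli1* (7.14 ± 1.06) and *Hhip* (5.56 ± 0.990) followed in WT, then *Sufu* (4.14 ± 0.519) and *Gli2* (4.06 ± 0.720), none separated from its neighbour. In P-Apex1KO they stood at 4.79 ± 0.498, 6.59 ± 1.04, 5.67 ± 1.30, 3.14 ± 0.0819 and 2.27 ± 0.335 in the same sequence of genes, with *Gli1*, *Hhip* and *Gli3* not separated from their neighbours. At 14-dpf in WT *Gas1* (53.9 ± 8.78) was again far above *Ptch1* (12.2 ± 2.44), *Smo* (12.1 ± 0.528), *Gli3* (7.85 ± 0.433), *Ihh* (7.09 ± 3.51), *Sufu* (4.72 ± 0.270), *Gli1* (3.43 ± 0.998), *Gli2* (3.31 ± 0.152) and *Hhip* (1.54 ± 0.480), with *Ptch1* and *Smo*, the run *Gli3*, *Ihh* and *Sufu*, and *Gli1* and *Gli2* not separated. In P-Apex1KO at 14-dpf it stood at 17.5 ± 4.65, above *Ptch1* (10.1 ± 3.07), *Ihh* (9.95 ± 3.94), *Smo* (6.77 ± 0.783), *Gli3* (4.08 ± 1.17), *Sufu* (3.09 ± 0.294), *Hhip* (2.74 ± 1.12), *Gli1* (2.67 ± 0.881) and *Gli2* (1.56 ± 0.440), where only *Smo* and *Gli3* were separated.

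**Figure D4:**
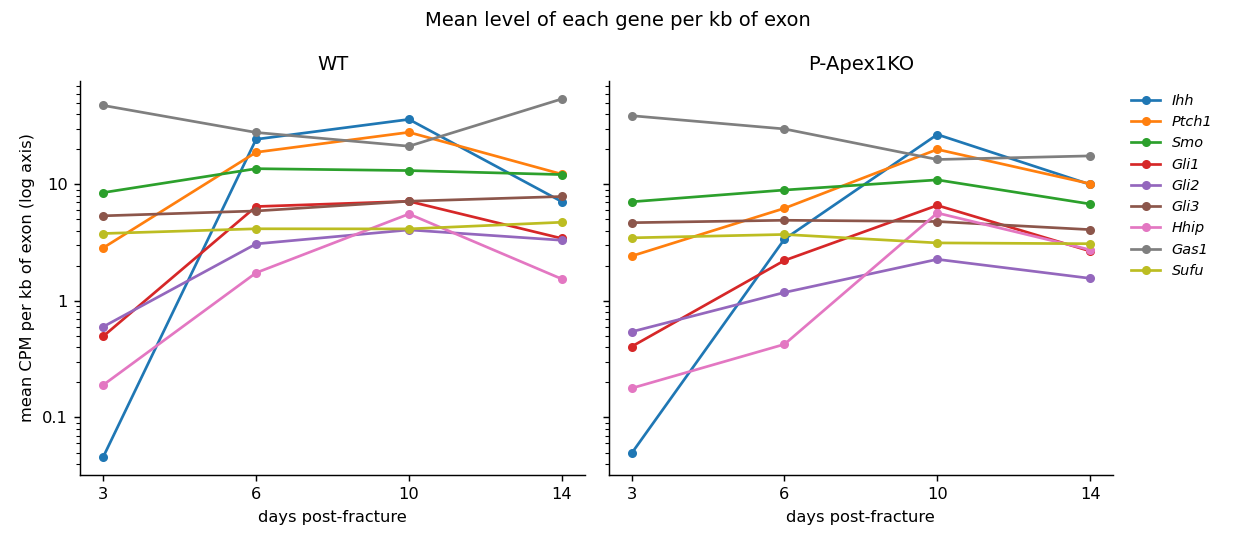
Mean level of each hedgehog gene per kb of exon, in CPM per kb on a log axis, by days post-fracture, in WT (left) and P-Apex1KO (right); each point is the mean of 3 to 5 libraries. In WT *Gas1* goes from 47.4 at 3-dpf to 27.8 at 6-dpf and from 21.2 at 10-dpf to 53.9 at 14-dpf, opposite to *Ihh* within each of these pairs. *Ihh* at 6-dpf reaches 24.3 in WT and 3.38 in P-Apex1KO. A library batch cannot be told apart from time between 6- and 10-dpf.

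The profiles nearest to the ligand and readout genes over all 30 libraries were sought by the root mean square distance of log2 CPM, each gene centred on its own mean, among the 13793 protein-coding genes that averaged 1 CPM or more. For *Ihh* they were *Clec3a* (0.75), *Snorc* (0.76) and *Hapln1* (0.83), genes of the cartilage matrix or the chondrocyte membrane, where the median gene lay at 3.58. For *Ptch1* they were *Wnt5b* (0.28), *Cspg4* (0.34) and *Pcolce2* (0.35) against a median of 1.32. The readout gene *Gli1* had *Gramd2a* (0.33), *Penk* (0.42) and its fellow readout *Ptch1* (0.45) nearest, against 1.63. Closest to *Hhip* were *Loxl4* (0.57), *Kirrel3* (0.61) and *Nebl* (0.64), against 1.95. These distances describe shared time courses and genotypes in the same libraries.

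Beyond the 9 genes, 38 further genes of the pathway were followed: ligands and their release, coreceptors, cilium and transport, GLI processing, and genes known to respond to hedgehog. At 6-dpf 6 of the 37 tested were lower and 1 higher, at 10-dpf 1 and 1, at 14-dpf 3 and 3, and at 3-dpf 0 of 36 were called by edgeR or DESeq2, with 2 at an unadjusted p under 0.05. The shares of all genes lower and higher were 5.61% and 5.31% at 6-dpf, 3.44% and 3.01% at 10-dpf and 7.04% and 4.28% at 14-dpf, so the counts at 10-dpf and the lower count at 14-dpf were near what all genes gave. The medians were -0.26, -0.08, -0.07 and -0.11 in that sequence of days. The other ligands stayed low: *Shh* had 0 to 11 reads per library and was never tested, and *Dhh* ranged from 0.742 to 5.18 CPM over all libraries and was not called at any time point (log2 difference 0.50 at 6-dpf, SE 0.28, adjusted p = 0.307).

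Of the genes of ligands and ligand release, 3 of the 6 tested were lower at 6-dpf. *Scube1*, of a family of secreted proteins that help to release hedgehog ligands, ranged from 63.2 to 118 CPM in WT and from 11.7 to 25 CPM in P-Apex1KO (difference -2.13, SE 0.29, adjusted p = 0.00326). Its relative *Scube2* ranged from 15.6 to 30.6 and from 10.0 to 14.4 CPM (-1.07, SE 0.21, adjusted p = 0.0133). *Disp1*, the transporter that lets lipid-modified ligand leave the cell, was lower by less, at -0.48 (SE 0.12, adjusted p = 0.0358) at 6-dpf and -0.55 (SE 0.12, adjusted p = 0.0376) at 10-dpf. The other calls at 6-dpf were *Tulp3* (-0.60, SE 0.17, adjusted p = 0.0474) and *Dync2h1* (-0.39, SE 0.08, adjusted p = 0.0188) of ciliary transport and the GLI kinase *Gsk3b* (-0.46, SE 0.11, adjusted p = 0.0249), all lower. *Ccnd2*, a cyclin gene known to respond to hedgehog, was higher (0.72, SE 0.11, adjusted p = 0.00407). *Ccnd2* was higher again at 10-dpf (0.46, SE 0.07, adjusted p = 0.017). With library size alone as the scaling, the 6-dpf calls of the 37 genes were 3 lower (*Scube1*, *Scube2*, *Gsk3b*) and 6 higher, in place of 6 and 1. Of the 20260 genes tested, 814 were lower and 2780 higher under that scaling.

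At 14-dpf 2 of these 6 genes were higher and 0 lower. *Scube1* ranged from 11.1 to 30.3 CPM in WT and from 33.8 to 82.3 CPM in P-Apex1KO (2.42, SE 0.47, adjusted p = 0.0215). *Scube3* ranged from 4.62 to 13.7 and from 9.76 to 17.6 CPM with an overlap (1.6, SE 0.36, adjusted p = 0.0291). The ciliary kinesin gene *Kif7* (-1.02, SE 0.16, adjusted p = 0.00748), the GLI kinase *Dyrk2* (-0.66, SE 0.09, adjusted p = 0.00529) and the coreceptor gene *Boc* (-0.93, SE 0.24, adjusted p = 0.0491) were lower. *Ift80*, of the transport particles of the cilium, was higher (0.59, SE 0.14, adjusted p = 0.0324). *Boc* was thus called in the direction of *Gas1*, another coreceptor, while the coreceptor gene *Cdon* lay the other way and was not called (0.57, SE 0.40, adjusted p = 0.404). *Scube1* and *Scube3* were called in the direction that *Ihh* had in the fit with sex, which rests on the only WT female. Of the ligand and release genes not called, *Scube2* (0.52) and *Dhh* (0.66) lay above 0 and *Disp1* (-0.33) and *Hhat* (-0.18) below. Without the sex term 8 of the 37 were lower and 5 higher, near the 18.4% and 18.8% of all genes. With library size alone 1 was lower and 5 were higher, beside 766 and 1878 of the 20228 genes tested.

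Markers of callus cell types moved at the same time points. At 6-dpf all 12 chondrocyte markers, such as *Col2a1* and *Acan*, were lower, with a median of -2.98 and a summed level of 36774 to 65519 CPM in WT and 3223 to 6126 CPM in P-Apex1KO. At 10-dpf 0 of 12 were called (20393 to 51952 and 15509 to 25972 CPM). At 14-dpf 10 of 12 were higher and 2 lower with sex in the model (median 2.94), with summed levels of 4699 to 9665 CPM in WT and 6208 to 7174 CPM in P-Apex1KO. That fit rests on the only WT female, and the markers were not counted without the sex term. *Col2a1*, fitted at 1.84, ranged from 533 to 3374 CPM in WT and from 1537 to 2365 CPM in P-Apex1KO. *Acan*, fitted at 2.61, ranged from 160 to 935 and from 639 to 1179 CPM. Most chondrocyte markers were thus called in the same direction as *Ihh* at 6-dpf and, in the fit with sex, at 14-dpf. At 14-dpf the summed levels of these markers overlapped between genotypes, as the levels of *Ihh* did. Of 6 hypertrophic chondrocyte markers, led by *Col10a1* and *Panx3*, 3 were lower at 6-dpf (3940 to 6373 against 935 to 1390 CPM), 3 lower at 10-dpf (14524 to 17891 against 8650 to 12460 CPM), and 1 lower and 1 higher at 14-dpf (4739 to 9211 against 4000 to 9279 CPM). *Col10a1* (-3.96) and *Panx3* (-1.68) were both lower at 6-dpf. Neither was called at 10-dpf (-0.57, adjusted p = 0.15, and 0.19, adjusted p = 0.407). At 14-dpf *Col10a1* was the one called higher (2.46, SE 0.50, adjusted p = 0.0234), in the fit that rests on the only WT female.

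Osteoblast markers, among them *Sp7* and *Runx2*, were lower throughout from 6-dpf, 8, 6 and 6 of 10 at 6-, 10- and 14-dpf, and their summed level at 14-dpf was 124524 to 170329 CPM in WT and 32101 to 32991 CPM in P-Apex1KO. Of 8 limb mesenchyme markers, such as *Prrx1* and *Pdgfra*, 0, 2 and 3 were lower at those days, with sums at 14-dpf of 1715 to 1976 and 1189 to 2823 CPM. *Pdgfra* was among those lower at 10- and 14-dpf, and *Prrx1* was not called at any day. The macrophage markers *Adgre1*, *Csf1r* and 6 more were higher in 7, 6 and 6 of 8 cases, with 2 of 8 lower at 14-dpf, at 1650 to 2085 against 2805 to 3216 CPM at 6-dpf. *Adgre1* was higher at all 3 of these days. *Csf1r* was higher at 6-dpf (0.77), not called at 10-dpf (-0.33, adjusted p = 0.22) and called lower at 14-dpf (-1.12, SE 0.11, adjusted p = 0.00113). Of 10 skeletal muscle markers, led by *Acta1* and *Ckm*, 8 were higher at 6-dpf (3311 to 6065 against 7754 to 18131 CPM) and 0 at 10- and 14-dpf. Endothelial markers had 0, 1 and 4 of 8 lower and 0, 0 and 1 higher, and lymphocyte markers 4, 1 and 1 of 9 higher and 0 lower. No listed marker was at 0 in every library of a time point, at 3-dpf 0 of the markers tested were called, and the part of cell composition in the hedgehog differences was not tested.

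**Figure D5:**
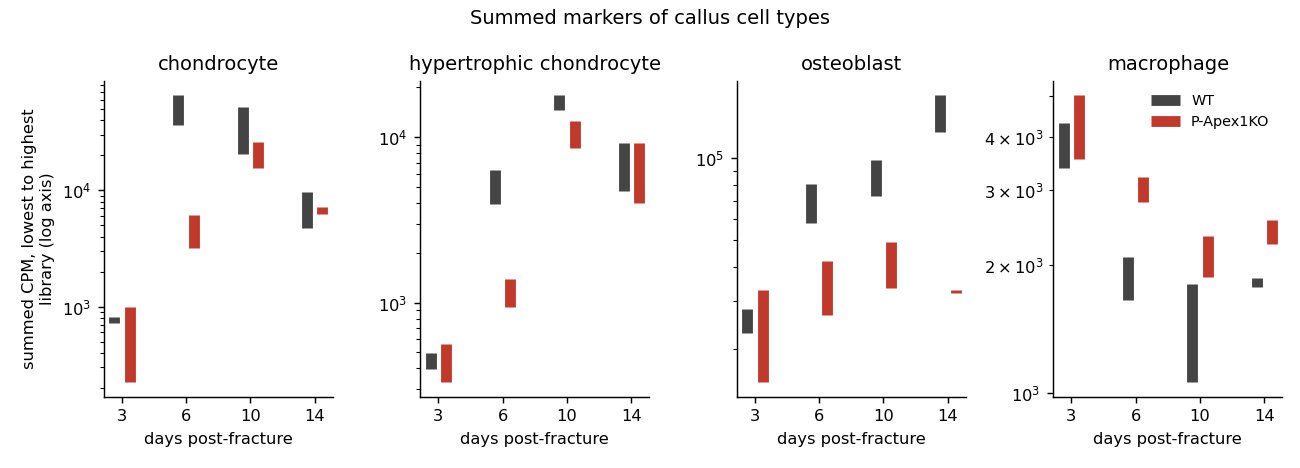
Summed level of the markers of 4 callus cell types, in CPM on a log axis, by days post-fracture; each bar runs from the lowest to the highest library of WT (grey) or P-Apex1KO (red). The chondrocyte bars are far apart at 6-dpf, at 36774 to 65519 against 3223 to 6126 CPM, and overlap at 10- and 14-dpf, while the osteoblast bars are apart from 6-dpf on.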

How the data were processed

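Bulk RNA of 30 fracture calluses, ground in liquid nitrogen, was sequenced from ribosomal RNA depleted, stranded libraries. The authors aligned reads to mm39 with STAR 2.7.0d after bcl2fastq 2.20 and ran featureCounts on Ensembl v104 genes, taking reverse-stranded reads with a unique position; the deposited table holds these raw counts, with no normalization. The authors tested them with DESeq2 1.32.0. Here counts were fitted with edgeR 4.0.16 (limma 3.58.1, R 4.3.3): filterByExpr, TMM, robust quasi-likelihood F tests, sex as covariate, Benjamini-Hochberg adjustment over all genes and a threshold of 0.05, at each time point alone and in models of 4 groups for the changes from 3- to 6- and from 10- to 14-dpf. DESeq2 1.42.0 was an alternative. Nothing says that replicates share a litter or day, and p-values measure the spread between these mice. Standard errors are the log2 fold change over the square root of F. The fits were tested on simulated counts.

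Names and positions came from GENCODE M39 on GRCm39, which matched 54749 of 55416 gene IDs. Library totals of 18334389 to 43111491 counts limit precision for low genes such as *Ihh* at 3-dpf. Promoter windows were read from the GRCm39 genome. Deviations of same-numbered WT and P-Apex1KO libraries at 3-dpf had correlations of 0.50, 0.13, 0.20 and 0.17. No label gives pairs, and the numbers were treated as pairs there on these values alone. The lowest was that of replicate 2, whose libraries differ in sex, so pairing was not told apart from shared sex. A replicate block called 0 members there as well. A block of these pairs was added to the 3- to 6-dpf model. The 9 members and all gene lists were chosen with earlier results of these data known. Named were every member, further hedgehog genes past the threshold, *Shh*, *Dhh*, *Apex1*, the first 2 genes of each marker list and the 3 nearest profiles of *Ihh*, *Gli1*, *Ptch1* and *Hhip*.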

Additional observations from a re-analysis of the deposited data

Results flagged for a closer look

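Of 45 groups of 4 or 5 libraries examined among the members, 3 held a library far from the others, and chance alone flags about 1 in 20. All 3 were in WT at 6-dpf: *Gli1* in replicate 1 at 27.7 CPM (others 32.3 to 34.2), *Gli2* in replicate 5 at 31.5 CPM (others 22.9 to 24.1) and *Gas1* in replicate 4 at 114 CPM (others 68.1 to 80.6). The rise from 3- to 6-dpf was smaller in P-Apex1KO than in WT by the test of that difference for *Ptch1* (-1.32 on the log2 scale) and *Hhip* (-1.89). Their causes were not tested.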

How the results depend on the processing

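Calls were recomputed with DESeq2, without sex, with other scalings and filters, a replicate block, wider models and each library left out. Of the values for single genes, 566 kept their direction and side of the threshold, 29 passed it newly, 19 no longer did and 17 reversed. From the fits with a library left out, these numbers take only the lowest and the highest log2 difference of each gene. They therefore leave out many of the lost calls named in the Results. Of the counts, 233 stayed within 1.5 times the value reported and 48 did not. The causes were not tested. DESeq2 called 4 members at 10-dpf in place of 2, 5 for the difference in the 3- to 6-dpf change in place of 2, 3 for the P-Apex1KO change from 10- to 14-dpf and 2 for its difference between genotypes, both in place of 0, and 4 other hedgehog genes at 10-dpf. Of all genes, DESeq2 called 2160 of 18910 at 10-dpf and 716 of 20468 for the difference in the 3- to 6-dpf change. The P-Apex1KO change from 10- to 14-dpf had 3 members without the sex term, 1 without a filter and 3 with all samples in one model. All genes called in those 3 fits numbered 672 of 19162, 217 of 35373 and 507 of 20642. Other hedgehog genes numbered 12 at 6-dpf, 4 at 10-dpf and 10 at 14-dpf with all samples, 5 at 10-dpf without a filter, and 13 without sex and 14 with the neighbouring time point at 14-dpf. All genes called numbered 3077, 1603 and 6188 of 20642 with all samples and 1818 of 32805 without a filter. They numbered 6849 of 18410 without sex and 5922 of 19705 with the neighbouring time point. Females alone at 14-dpf, chosen after seeing the data, gave 0 of both lists. The replicate block called 3 members and 2 other genes at 6-dpf in place of 6 and 7, where same-numbered libraries correlated at 0.13, -0.12 and 0.03, so the numbers were not taken as pairs; the correlations were 0.24, -0.23 and 0.28 at 10-dpf and -0.37, -0.15 and -0.10 at 14-dpf. A block of the 3-dpf pairs beside sex in the 3- to 6-dpf model, also chosen after seeing the data, called 7 members in WT, 5 in P-Apex1KO and 2 for the difference between genotypes and changed no call (*Ptch1* adjusted p = 0.0469, *Hhip* adjusted p = 0.0293). At 3-dpf 3 of 4 P-Apex1KO libraries correlated best with their own number.

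With 1 library left out, called members ranged from 4 to 6 at 6-dpf, 0 to 6 at 10-dpf (0 without replicate 1 of P-Apex1KO, 6 without replicate 4 of WT) and 2 to 8 at 14-dpf. For the changes they ranged from 4 to 6 (P-Apex1KO, 3 to 6), 0 to 4 (difference, 3 to 6), 0 to 1 (P-Apex1KO, 10 to 14) and 0 to 1 (difference, 10 to 14), and other genes from 2 to 9, 0 to 4 and 3 to 8 at 6-, 10- and 14-dpf. Shares of all genes called were not counted for the fits with 1 library left out. The fit without replicate 1 of WT at 14-dpf, the only WT female, was not run, since sex and genotype then coincide. Uncalled log2 differences that reversed were *Hhip* at 3-dpf (-0.63 to 0.10) and *Gas1* at 6-dpf (-0.11) and *Gli1* at 10-dpf (0.01) with 1 library left out, *Sufu* at 6-dpf with library size alone (0.05), and *Hhip* at 10-dpf, near 0 throughout: 0.04 without sex, 0.08 with library size alone, 0.01 with at least 10 counts in every sample, 0.00 without the 20 most abundant genes, 0.01 with all samples and -0.16 to 0.13 with 1 library left out. At 14-dpf *Ptch1* and *Gli1* reversed without sex (-0.24 and -0.33), with the replicate block (-0.23 and -0.32) and with all samples (-0.21 and -0.22), and *Gli1* with the neighbouring time point (-0.05).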
